A study of Arabidopsis thaliana with 4 samples.

Results

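RALF peptides (rapid alkalinization factors) are small secreted signals of plants, and 6 of the 11 RALF-like genes measured here on whole Arabidopsis seedlings were bright enough to be compared between plants that overexpress RECA1 and wild-type plants. The 6 genes are RALFL22, RALFL24, RALFL31, RALFL32, RALFL33 and RALFL34. They were chosen by symbol and by level: the platform annotation pairs the probe set with 1 gene only, its symbol starts with RALFL or is RALF1, and the log2 signal averaged over all 4 arrays is at least 6.82. A probe set is the group of short probes on the array that reports on 1 transcript, and each of the 11 genes had 1 probe set. In all, 13350 genes had a probe set of their own. The rule uses the level over both groups together and not the difference between them, but a large fall or rise can still move a gene across the limit. RefSeq's TAIR10.1 gene table lists 34 RALF genes, and the other 23, RALF1 and RALF23 among them, had no probe set of their own in the annotation used and are not analysed here.

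The wild type was the ecotype Col-0, with 2 arrays, and the other group was T3 transgenic plants in the Col-0 background that overexpress RECA1 (AT1G79050), also with 2 arrays and here called RECA1-OE. RECA1 is the chloroplast counterpart of RecA, the DNA recombinase of bacteria. All seedlings were 2 weeks old, grown at 23 °C with 16 h of light after 4 days of seed stratification, and otherwise left untreated. The promoter of the transgene and the number of independent lines are not given in the sources used here, nor is it said whether the biological replicates of a group were grown separately, so the p-values measure only the spread between these arrays.

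RALF peptides are made as longer precursors, many of which are cut by the subtilase S1P (SITE-1 PROTEASE), and the mature peptide raises the pH outside the cell and restrains cell growth. They are perceived by receptor kinases of the CrRLK1L family, of which FERONIA (FER) and THESEUS1 (THE1) are the best known, together with small anchored co-receptors of the LORELEI family, and they bind leucine-rich repeat extensins in the cell wall. In seedlings they are known for restraining root elongation, for a part in lateral root formation and for tuning immune and salt stress responses. The levels of different genes come from different probes and were not set against each other.

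Across the arrays the median log2 signal lay between 7.58 and 7.63, and 13647 of 22746 probe sets passed the filter on dim signals. Over the tested probe sets the correlation (Pearson's r) was 0.966 for the Col-0 pair of arrays, 0.980 for the RECA1-OE pair and 0.882 to 0.924 between arrays of different groups. Genes known as leaf markers were bright on every array, and the summed linear signal of the 3 measured of 5 listed (RCA, LHCB4.1, PSAE-1) was 64360 to 67631 in Col-0 and 55264 to 66790 in RECA1-OE. For the 3 measured of 5 listed root markers (PYK10, EXPA7, EXPA18) it was 12136 to 18247 in Col-0 and 9298 to 13121 in RECA1-OE. The root sum is almost only PYK10, whose mean log2 signal over all 4 arrays was 13.61, against 6.80 for EXPA7 and 7.35 for EXPA18. None of the leaf or root markers tested was called different by limma, and 1 of them, EXPA18, had an unadjusted p under 0.05. The log2 differences of PYK10 and EXPA18 were -0.43 and -0.66 with all arrays. They were -0.73 and -1.01 without Col-0 replicate 2 and -0.13 and -0.30 without Col-0 replicate 1. The pollen markers ANX1 and ANX2, the 2 measured of 5 listed, summed to 8.17 to 11.4 in Col-0 and 6.24 to 23.9 in RECA1-OE, near the floor. RECA1 itself had no paired probe set, so its level could not serve as a check of the labels.

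RALFL33 rose in RECA1-OE, and no other of the 6 RALF-like genes passed the test. Of the other 5, RALFL22 and RALFL32 had a slightly higher mean in RECA1-OE and RALFL24, RALFL31 and RALFL34 a slightly lower one. The test was limma on the log2 values, with p-values adjusted over all tested probe sets by the Benjamini-Hochberg method and a threshold of 0.05. Across all tested probe sets 19.9% passed it, 9.94% as higher and 9.97% as lower in RECA1-OE, so that 1 of 6 RALF-like genes, or 16.7%, is near the share of the whole array. The 2716 probe sets behind that share became 746 and 1117 when RECA1-OE replicate 1 or RECA1-OE replicate 2 was left out and 1787 with no filter on dim signals, and RALFL33 was among those called each time. The median log2 difference over the 6 genes was -0.01, against -0.04 over all tested probe sets. The genes were thus split in direction, 3 and 3, around a median close to that of the array.

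**Figure D1:**
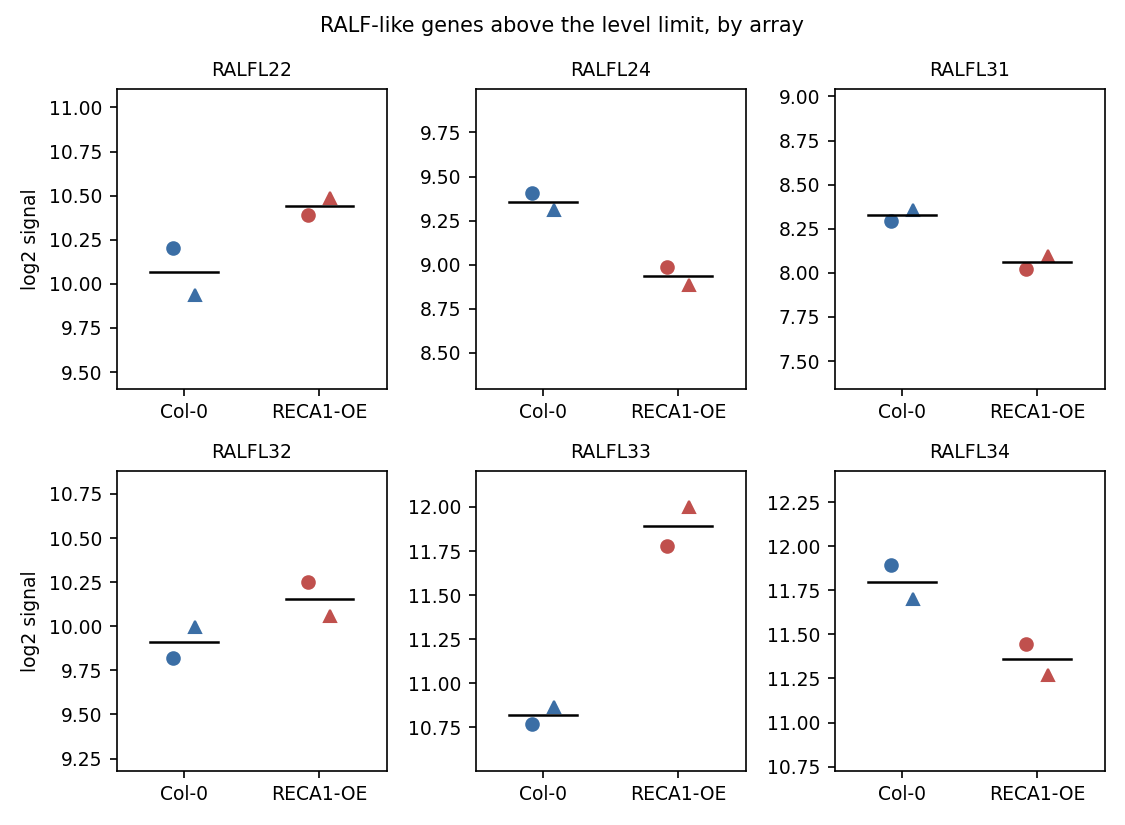
Log2 signal (vertical axis) of the 6 RALF-like genes above the level limit in Col-0 (blue) and RECA1-OE (red); circles are replicate 1, triangles replicate 2 and bars the mean of 2 arrays, and every panel spans the same height. The RECA1-OE arrays of RALFL33 sit at 11.78 and 12.00, well above the Col-0 arrays at 10.77 and 10.87, and the other 5 genes move less.

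RALFL33 (AT4G15800) encodes RALF33, a peptide perceived through FER. Its log2 signal was 10.77 and 10.87 on the 2 Col-0 arrays and 11.78 and 12.00 on the 2 RECA1-OE arrays. Both RECA1-OE arrays were high and both Col-0 arrays low, and the gap between the groups, 0.91, was wider than the largest gap between replicates, 0.22. The mean rose from 10.82 ± 0.07 to 11.89 ± 0.16 (SD, n = 2 each). The log2 difference was 1.07 ± 0.15 (SE), which is 2.10-fold, with a 95% interval of 0.72 to 1.42 and a limma adjusted p of 0.0044. Among all tested probe sets 5.22% had a rise at least as large. In whole seedlings a change in the number of cells that express a gene and a change in its RNA per cell cannot be told apart, here as for every gene below. The measured root and leaf markers all had a lower mean in RECA1-OE, with a log2 difference of -0.66 for EXPA18, and none of those tested was called. The part of tissue make-up in the rise of RALFL33 was not tested.

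RALFL22 (AT3G05490) encodes RALF22, a FER ligand known from salt stress responses. Its log2 signal was 10.20 and 9.93 in Col-0 and 10.39 and 10.49 in RECA1-OE. Both RECA1-OE arrays lay above both Col-0 arrays, by a gap of 0.19 that was narrower than the 0.27 between the Col-0 replicates. The log2 difference was 0.37 ± 0.16 (SE), with a 95% interval of -0.001 to 0.74 and a limma adjusted p of 0.142, so it did not pass. The interval ends below the estimate of 1.07 for RALFL33, and the difference between these changes was not tested.

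RALFL34 (AT5G67070) encodes RALF34, a ligand of THE1 with a part in lateral root initiation. Its log2 signal was 11.89 and 11.70 in Col-0 and 11.45 and 11.27 in RECA1-OE. Both RECA1-OE arrays lay below both Col-0 arrays, by 0.25, somewhat more than the 0.20 between the Col-0 replicates. The log2 difference was -0.44 ± 0.15 (SE), with a 95% interval of -0.79 to -0.09. It had an unadjusted limma p of 0.021 and an adjusted p of 0.080 and did not pass.

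RALFL24 (AT3G23805) had a log2 signal of 9.41 and 9.31 in Col-0 and of 8.99 and 8.88 in RECA1-OE. The replicates lay at most 0.10 apart and the groups 0.32 apart, with RECA1-OE the lower. Its log2 difference was -0.42 ± 0.15 (SE), with a 95% interval of -0.78 to -0.07 and a limma adjusted p of 0.093, and did not pass. RALFL24 and RALFL34 were the 2 members closest to the threshold without passing it, and 19.3% of all tested probe sets had a fall at least as large as that of RALFL34. Differences of this size were thus common on these arrays.

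RALFL31 (AT4G13950) and RALFL32 (AT4G14010) lie on the same chromosome, with 12 other annotated genes between them, and had means that differed in opposite directions. The log2 signal of RALFL31 was 8.30 and 8.36 in Col-0 and 8.02 and 8.10 in RECA1-OE. Both RECA1-OE arrays were lower, and the log2 difference of -0.27 ± 0.17 (SE; 95% interval -0.66 to 0.12) had a limma adjusted p of 0.292. The log2 signal of RALFL32 was 9.82 and 9.99 in Col-0 and 10.25 and 10.06 in RECA1-OE. Here both RECA1-OE arrays were higher, but by a gap of only 0.06, against 0.20 between the RECA1-OE replicates. The log2 difference of RALFL32 was 0.25 ± 0.16 (SE; 95% interval -0.12 to 0.62), with a limma adjusted p of 0.304. Neither gene passed, and the intervals of both leave room for a change in either direction.

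In all 6 genes the groups did not overlap. The same held for 65.0% of all tested probe sets (29.9% with RECA1-OE higher, 35.1% lower), so the absence of overlap alone says little about these genes. With 2 arrays against 2, an exact permutation test of 1 gene cannot go below p = 0.333. The gap between groups was wider than the largest gap between replicates in 4 of the 6 genes, RALFL24, RALFL31, RALFL33 and RALFL34, and narrower in RALFL22 and RALFL32.

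**Figure D2:**
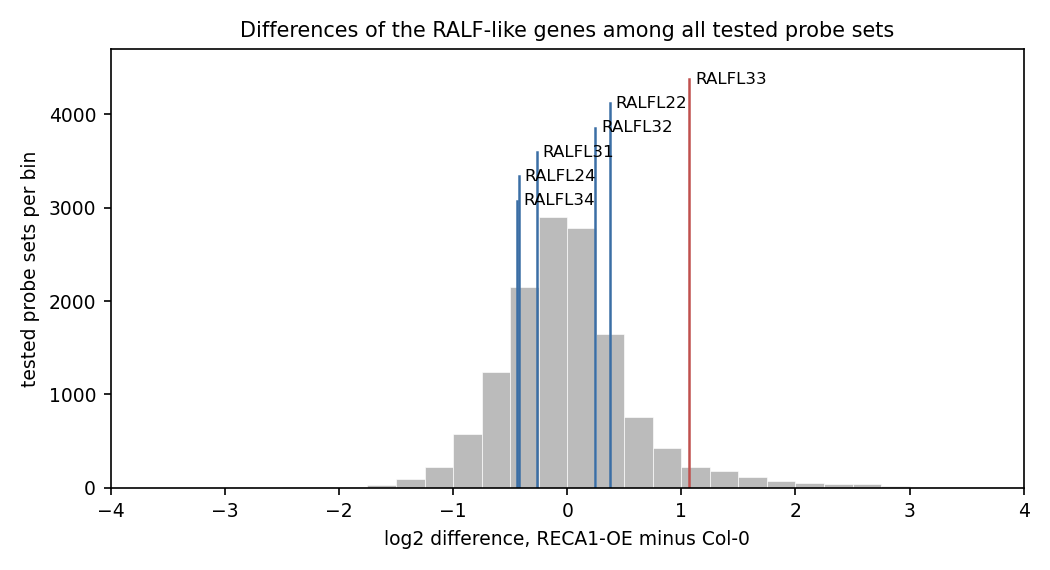
Number of tested probe sets (vertical axis) by log2 difference between RECA1-OE and Col-0 (horizontal axis, grey bars, 0.25 wide), with the differences of the 6 RALF-like genes as lines, red where the gene passed and blue where it did not; line heights carry no value. RALFL33 at 1.07 stands in the upper tail, where 5.22% of probe sets rose as much, and the other 5 lie in the bulk between -0.44 and 0.37.

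The level rule left out 5 RALF-like genes, and there was a wide step between the members just inside and just outside it. The dimmest members inside were RALFL31, with a mean log2 signal of 8.19 over all 4 arrays, and RALFL24 with 9.15, and the brightest outside were RALFL27 with 5.94 and RALFL18 with 5.72. RALFL27 (AT3G29780) had a log2 signal of 6.62 and 7.36 in Col-0 and of 4.74 and 5.02 in RECA1-OE, so both RECA1-OE arrays were lower. RALFL18 (AT2G33130) had 5.19 and 4.92 in Col-0 and 6.20 and 6.56 in RECA1-OE, so both RECA1-OE arrays were higher. Over all 4 arrays the mean levels of both genes lie below the limit. The Col-0 mean of RALFL27 was 6.99, above the limit, so its low RECA1-OE values put it outside the rule. The log2 difference of the means was -2.11 for RALFL27 and 1.32 for RALFL18. Neither gene was in the main test. The fit with no filter on dim signals included both, but their results in it were not read out, so no p-value is given.

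The other 3 genes below the limit were dimmer still, and their groups overlapped. RALFL26 (AT3G25170) had a log2 signal of 5.55 and 2.42 in Col-0 and of 4.84 and 4.75 in RECA1-OE. RALFL28 (AT4G11510) had 4.61 and 1.34 in Col-0 and 4.20 and 4.31 in RECA1-OE. RALFL25 (AT3G25165), which is separated from RALFL26 by 1 annotated gene, had 4.31 and 1.00 in Col-0 and 4.40 and 1.52 in RECA1-OE. In all 3 the Col-0 replicates differed from each other by more than the group means did, with Col-0 replicate 2 the lower.

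**Figure D3:**
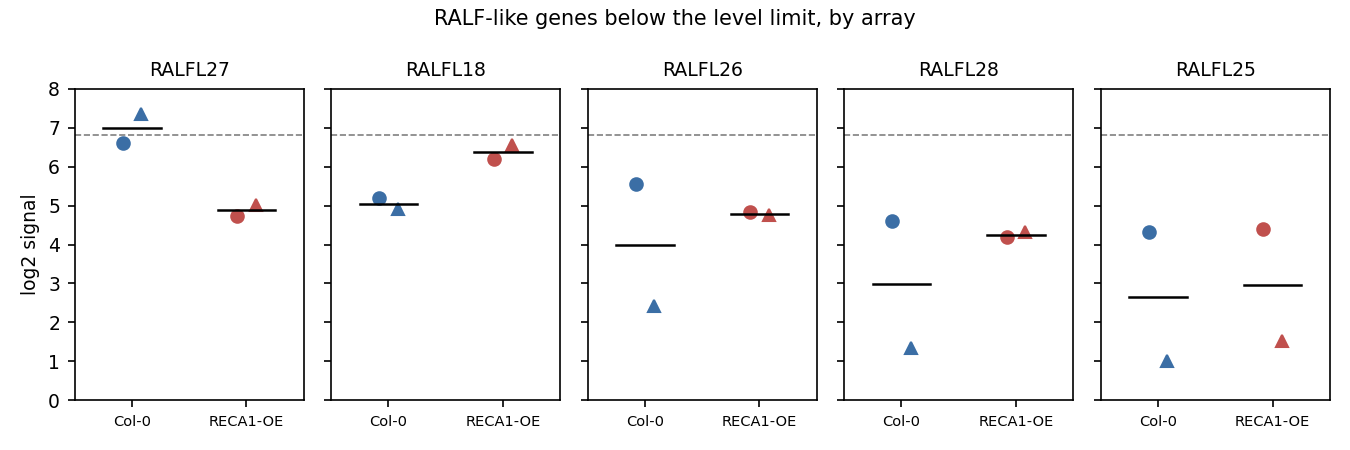
Log2 signal (vertical axis) of the 5 RALF-like genes below the level limit in Col-0 (blue) and RECA1-OE (red); circles are replicate 1, triangles replicate 2, bars the mean of 2 arrays and the dashed line the limit of 6.82. RALFL27 is lower and RALFL18 higher on both RECA1-OE arrays, whereas in RALFL26, RALFL28 and RALFL25 the Col-0 replicates lie further apart than the group means.

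The genes through which RALF peptides are made, perceived and relayed were listed by locus, 50 in 4 lists. Of these, 24 had a probe set of their own in the annotation, and 12 of the 24 were bright enough to be tested. By limma 4 of the 12 rose in RECA1-OE, 0 fell and 8 did not pass, against 9.94% of all tested probe sets called higher. The 4 became 2 without RECA1-OE replicate 1. The 12 genes all had a higher mean in RECA1-OE, with a median log2 difference of 0.43, but several passed the level filter with help from their RECA1-OE values. The extensin gene AT3G24480 fell outside the filter through a low value on RECA1-OE replicate 1. Neither count nor median thus speaks for the lists as a whole. For loci without a symbol the family is given from the lists, not from the annotation.

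Of the 17 CrRLK1L receptor kinase genes, 12 were paired and 8 tested, of which 2 rose and 6 did not pass. FER itself did not pass, with a log2 signal of 11.02 and 11.09 in Col-0 and 11.48 and 11.17 in RECA1-OE. Its log2 difference was 0.27 ± 0.16 (SE; 95% interval -0.10 to 0.64), with a limma adjusted p of 0.268. THE1 had 8.79 and 8.68 in Col-0 and 8.98 and 9.31 in RECA1-OE, a log2 difference of 0.41 ± 0.18 (SE; limma adjusted p 0.142). The receptors of RALF33 and RALF34 named above thus showed no called change in transcript level, and the upper ends of their 95% intervals were 0.64 for FER and 0.82 for THE1.

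The 2 receptor kinase genes that rose were AT5G39020 and AT5G39030, which are separated by 1 annotated gene. AT5G39020 had a log2 signal of 6.85 and 6.26 in Col-0 and 8.50 and 8.58 in RECA1-OE. It rose by 1.99 ± 0.24 on the log2 scale (SE), or 3.96-fold (limma adjusted p 0.0028). AT5G39030 had 7.34 and 6.29 in Col-0 and 8.67 and 8.25 in RECA1-OE and rose by 1.65 ± 0.35 (SE), or 3.13-fold (limma adjusted p 0.018). Both had a Col-0 mean at or below the level limit, 6.55 and 6.82, so the sizes of these rises are uncertain. AT5G39030 did not pass in 3 of the alternative settings, with a limma adjusted p of 0.056 when no dim probe set was left out, 0.115 on leaving out RECA1-OE replicate 1 and 0.058 on leaving out RECA1-OE replicate 2. Cross-hybridisation between these 2 genes and their neighbours was not tested.

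Among the other receptor kinase genes, AT2G23200 had a log2 difference of 0.64 ± 0.23 (SE; limma adjusted p 0.093) and AT2G39360 one of 0.46 ± 0.19 (SE; limma adjusted p 0.123). Over the alternative settings the difference of AT2G23200 ranged from 0.39 to 0.89. The remaining 2 tested genes, AT5G24010 and AT5G59700, are given after their values were seen, to account for all 8. AT5G24010 differed by 0.20 ± 0.21 (SE), with groups that did not overlap, and AT5G59700 by 0.23 ± 0.35 (SE), with groups that overlapped, and neither passed. The sign of AT5G59700 turned without Col-0 replicate 1 and without RECA1-OE replicate 1, to -0.18 and -0.09. The 4 paired genes of the family below the level limit were ANX1, ANX2, AT4G39110 and AT2G21480, of which ANX1 and ANX2 are known for their part in pollen tubes.

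Of 11 leucine-rich repeat extensin genes, 8 were paired and 2 tested. AT3G22800 had a log2 signal of 6.26 and 6.56 in Col-0 and 8.49 and 7.59 in RECA1-OE. It rose by 1.63 ± 0.32 (SE), or 3.10-fold (limma adjusted p 0.014), from a Col-0 mean of 6.41 that lies below the level limit, and without RECA1-OE replicate 1 it lost the call (limma adjusted p 0.092). AT4G18670 had 7.59 and 6.10 in Col-0 and 6.96 and 6.99 in RECA1-OE, and its log2 difference of 0.13 ± 0.45 (SE) turned to -0.62 without Col-0 replicate 2. The 6 other paired extensin genes were below the limit. None of the 4 LORELEI family co-receptor genes had a paired probe set.

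Of the list of the processing protease and 17 signalling partners, 18 genes in all, 4 were paired and 2 tested. S1P, the protease that cuts RALF precursors, did not pass, with a log2 signal of 8.11 and 8.05 in Col-0 and 8.36 and 8.19 in RECA1-OE and a log2 difference of 0.19 ± 0.17 (SE; limma adjusted p 0.456). CML38, a calmodulin-like calcium sensor, had a log2 signal of 7.93 and 8.29 in Col-0 and 9.76 and 10.18 in RECA1-OE. It rose by 1.86 ± 0.21 (SE), or 3.63-fold (limma adjusted p 0.0020), and kept the call in all 11 alternative settings. The immune receptor gene EFR and AT2G41970 were below the level limit. EFR had a log2 signal of 6.17 and 5.93 in Col-0 and 6.22 and 6.66 in RECA1-OE. AT2G41970 went the other way, with 6.31 and 6.43 in Col-0 and 5.81 and 5.43 in RECA1-OE.

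**Figure D4:**
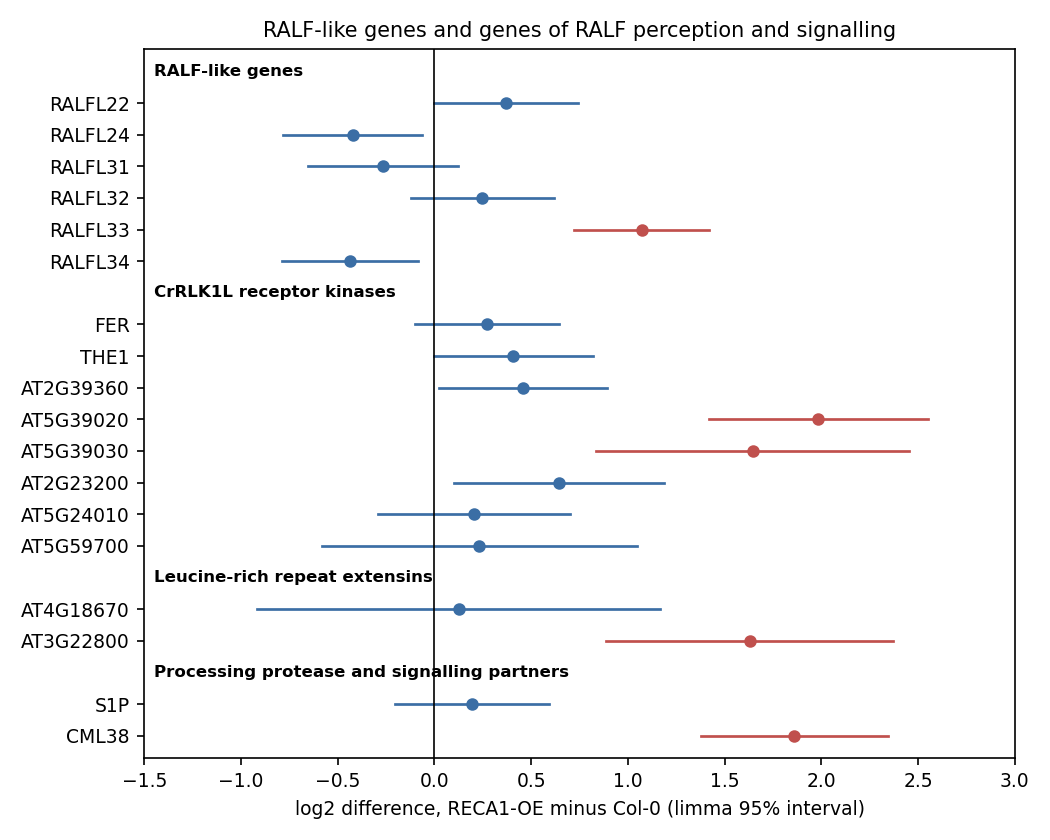
Log2 difference between RECA1-OE and Col-0 (horizontal axis; points, with limma's 95% intervals as bars) of the 6 RALF-like genes and the 12 tested genes of the pathway lists, red where the gene passed and blue where it did not. RALFL33 at 1.07, AT5G39020 at 1.99, AT5G39030 at 1.65, AT3G22800 at 1.63 and CML38 at 1.86 are the genes that passed, and the points of FER, THE1 and S1P lie between 0.19 and 0.41.

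Genes whose pattern over the 4 arrays was most like that of RALFL33 and of RALFL34, the members with the largest rise and the largest fall in mean, were found among the 7264 other tested probe sets paired with 1 gene. Likeness was the root mean square distance between the log2 values, each probe set first centred on its own mean. Nearest to RALFL33 were AT2G30930, AT3G49790, DELTA-OAT (AT5G46180) and AT1G53430, at distances of 0.044 to 0.055. DELTA-OAT, an ornithine aminotransferase, had a log2 signal of 8.71 and 8.66 in Col-0 and 9.60 and 9.83 in RECA1-OE. Nearest to RALFL34 were AT5G01870, AT5G01460, AT5G08750 and AT5G63700, at distances of 0.024 to 0.026. These matches rest on 4 arrays and are a description only.

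RALFL33 kept its call in every alternative setting tried. Its log2 difference lay between 0.96 and 1.18 when each array was left out in turn, and its limma adjusted p was 0.037 at most over all 11 alternative settings. RALFL22, RALFL24, RALFL31, RALFL32 and RALFL34 kept their sign and did not pass in any setting in which they were measured. Fits without an array, of either group, leave 1 array in that group with its spread unmeasured, so the calls kept or lost in them carry less weight. Without a Col-0 array, moderation took the spread of every probe set from the trend with signal level alone. The p-values of those fits cannot be set beside the others.

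**Figure D5:**
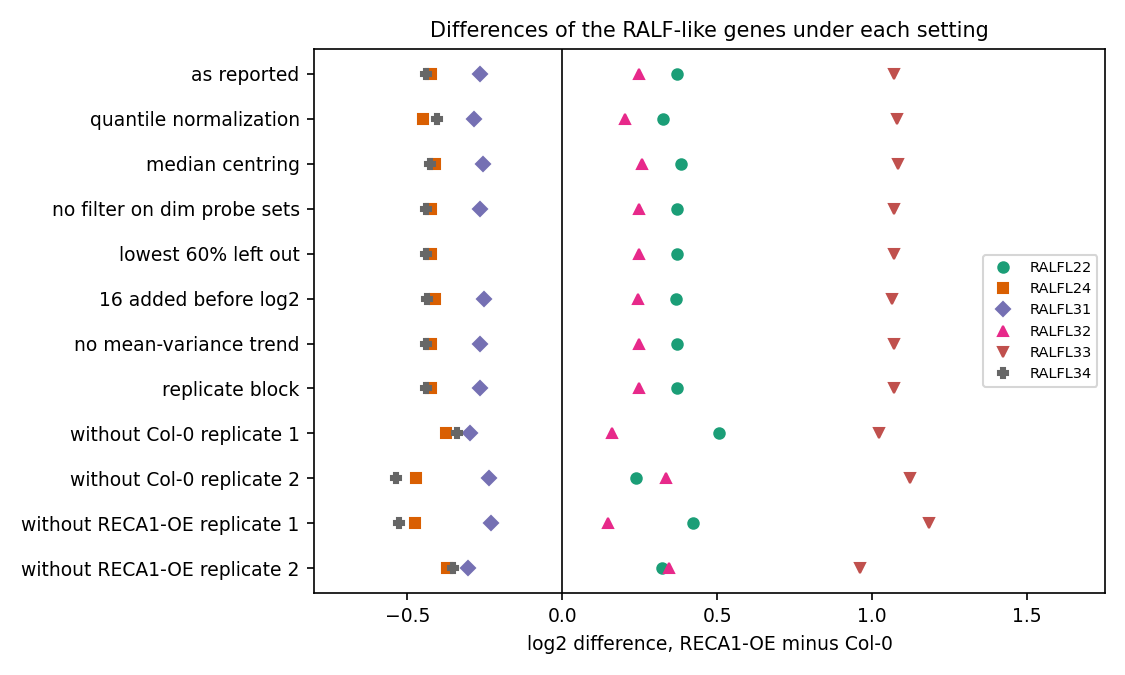
Log2 difference between RECA1-OE and Col-0 (horizontal axis) of each RALF-like gene as reported and under 11 alternative settings (vertical axis), with 1 symbol per gene. RALFL33 stays between 0.96 and 1.18 and the other 5 genes keep their side of 0; RALFL31 has no point where the lowest 60% were left out.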

How the data were processed

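Per the labels' protocols, 5 µg of total RNA per sample was copied from an oligo(dT) primer, transcribed into biotinylated RNA and put on 1 Affymetrix array. The deposited values are log2 signals, 1 for each probe set on each array, and the submitters' processing notes name MAS5 as the tool behind them. MAS5 scales each array by 1 factor, and on the linear scale the 2% trimmed means lay between 495.3 and 495.8. Scaling by 1 factor leaves bends in the response between arrays in place. Depth has no meaning on arrays, and their number limits the precision.

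Linear values under 1 were set to 1, and the lowest 40% of probe sets by mean level over the 4 arrays, 9099 in all, were not tested. RECA1-OE was compared with Col-0 with limma 3.58.1 in R 4.3.3 (lmFit and trended eBayes, two-sided, Benjamini-Hochberg adjustment over 13647 probe sets) on the values as deposited. Each probe set has 2 residual degrees of freedom, and moderation added 5.42. It was tested on simulated data. Of 22746 probe sets 13513 were paired with 1 gene, named by Entrez ID or symbol through RefSeq's TAIR10.1 table. No build comes with the values, so no coordinates are given. Named were all RALF-like genes, every listed pathway gene that passed and up to 4 others per list by smallest unadjusted p (2 more receptor kinase genes were added after their values were seen), and the 4 nearest in pattern to the members with the largest rise and fall. The members and lists were chosen with earlier results of these data known. Alternatives were quantile normalization, median centring, no filter, the lowest 60% left out, 16 added to linear values, no trend, the replicate number as a block, and leaving out each array. Another probe set per gene could not be tried, since each RALF-like gene had 1.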

Additional observations from a re-analysis of the deposited data

How the results depend on the processing

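All 65 values of the 6 RALF-like genes under the 11 alternatives kept their direction and their side of the threshold, and so did 163 of the 177 values of the 17 other genes. With the replicate number as a block, 2390 probe sets were called in place of 2716, and no call of a RALF-like or listed gene changed. The numbers pair the arrays by label, and the replicate differences of the 2 groups had a Pearson's r of -0.06 across probe sets. That value cannot show whether arrays of the same number were grown or processed together. When dim probe sets were kept, 1787 were called. Leaving out each array in turn gave between 746 probe sets, without RECA1-OE replicate 1, and 3906, without Col-0 replicate 1. The 4 pathway genes called higher became 2 to 5 when an array was left out and 1 of 3 with the lowest 60% left out, where fewer genes were measured; RALFL31 was not measured there. After quantile normalization the differences of RCA and PSAE-1 turned to 0.021 and 0.069. When an array was left out they ranged from -0.25 to 0.10 for RCA, from -0.22 to 0.047 for PSAE-1, from -0.18 to 0.64 for AT5G59700 and from -0.62 to 0.87 for AT4G18670. The causes were not tested. Signals near the level limit and only 2 arrays a group limit what can be called.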
